A study of Mus musculus with 12 samples.

Results

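The 10 genes described here carry out and control the presentation of peptides on MHC class I molecules, and the peaks of open chromatin that 12 ATAC-seq libraries listed at them were collected. They were H2-K1, H2-D1, B2m, Tap1, Tap2, Tapbp, Psmb8, Psmb9, Psmb10 and Nlrc5, out of 21774 protein-coding genes. A peak was taken when it overlapped the gene's outermost annotated span (GRCm38) or the 3 kb on either side, and overlapping peaks of the 12 libraries were merged. This gave 20 merged regions out of 97889 on the mouse chromosomes, numbered 1 to 20 below in chromosome order. ATAC-seq uses the Tn5 transposase to cut and tag DNA that is not covered by nucleosomes, so a peak marks accessible chromatin and not expression.

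The cells were mouse embryonic stem cells of a BL6xCAST cross. In 6 libraries they carried synHPRT1R and in the other 6 synHPRT1, 2 synthetic constructs placed on the X chromosome. Each genotype was represented by 2 clones with 3 replicates each. All cells grew on gelatin in a mixture of 2i medium, LIF and serum-containing medium, and the labels name no interferon or other cytokine apart from LIF. The study was set up to ask whether the constructs are accessible and how they compare with the host genome, and no member gene lies on the X chromosome. Nothing in the labels tells whether the 3 replicates of a clone were separate cultures. The p-values below therefore measure a spread between libraries that may be technical.

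A class I molecule is a heavy chain, in mouse H2-K or H2-D, bound to the light chain beta-2-microglobulin and to a short peptide cut by the proteasome in the cytosol. The transporter TAP moves the peptide into the endoplasmic reticulum, where tapasin bridges it to empty class I molecules. In most cells interferon raises the whole pathway and exchanges the catalytic proteasome subunits for inducible ones, and the transactivator NLRC5 acts on class I promoters together with RFX, CREB-family and NF-Y proteins. Embryonic stem cells are known for very low class I protein at their surface.

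Before the values, the promoters on which the results turn are shown, because their open or unlisted state is what separates the members. They are RefSeq sequence of GRCm38.p6, written 5′ to 3′ on the strand of the gene. Each covers the 250 bases before the start, except for Tap1, where the 225 bases between the starts of Psmb9 and Tap1 are given. Capitals mark matches to 7 short motifs, searched on both strands. H2-K1 (chr17:34000334-34000583, minus strand) and H2-D1 (chr17:35262844-35263093, plus strand) encode the classical heavy chains. B2m (chr2:122147437-122147686, plus strand) encodes the light chain. The Psmb9 to Tap1 interval (chr17:34187331-34187555) is written on the plus strand, that of Tap1. Psmb8 (chr17:34197945-34198194, plus strand) and Psmb10 (chr8:105938393-105938642, minus strand) are shown as the members whose starts were seldom listed.
H2-K1: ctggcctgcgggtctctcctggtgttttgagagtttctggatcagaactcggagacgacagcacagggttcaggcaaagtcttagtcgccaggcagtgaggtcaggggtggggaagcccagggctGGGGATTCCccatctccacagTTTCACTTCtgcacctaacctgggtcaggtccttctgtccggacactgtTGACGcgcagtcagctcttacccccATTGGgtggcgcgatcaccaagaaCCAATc
H2-D1: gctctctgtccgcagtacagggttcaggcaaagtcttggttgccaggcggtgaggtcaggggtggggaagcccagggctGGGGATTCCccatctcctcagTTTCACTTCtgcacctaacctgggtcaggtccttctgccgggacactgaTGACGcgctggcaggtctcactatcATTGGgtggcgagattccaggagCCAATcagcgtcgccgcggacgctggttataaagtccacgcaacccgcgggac
B2m: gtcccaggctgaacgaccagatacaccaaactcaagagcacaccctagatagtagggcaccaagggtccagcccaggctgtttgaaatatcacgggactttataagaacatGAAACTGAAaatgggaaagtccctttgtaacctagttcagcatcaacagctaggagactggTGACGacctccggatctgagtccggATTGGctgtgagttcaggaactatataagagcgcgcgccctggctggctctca
Psmb9 to Tap1: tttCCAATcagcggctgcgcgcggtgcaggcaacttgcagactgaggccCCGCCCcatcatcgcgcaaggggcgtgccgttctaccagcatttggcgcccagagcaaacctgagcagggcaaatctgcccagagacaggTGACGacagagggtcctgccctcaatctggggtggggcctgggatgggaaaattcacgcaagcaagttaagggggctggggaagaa
Psmb8: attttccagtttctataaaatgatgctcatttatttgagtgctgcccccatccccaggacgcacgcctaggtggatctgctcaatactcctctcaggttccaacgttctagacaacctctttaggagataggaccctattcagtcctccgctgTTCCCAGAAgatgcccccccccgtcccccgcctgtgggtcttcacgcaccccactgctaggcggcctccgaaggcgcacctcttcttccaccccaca
Psmb10: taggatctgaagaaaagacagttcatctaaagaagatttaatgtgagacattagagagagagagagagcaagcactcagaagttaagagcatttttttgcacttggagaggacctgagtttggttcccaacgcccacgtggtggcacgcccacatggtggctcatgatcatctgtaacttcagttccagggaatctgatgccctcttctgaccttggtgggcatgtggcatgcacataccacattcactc

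H2-K1 has 2 annotated starts 14 bp apart. The printed window is that of the downstream one, while peaks within 1 kb were counted around both. The matches before either H2-K1 start stood in the same order as in H2-D1. From the distal end these were GGGNNTTCC, the core of an NF-kappaB site, GAANNGAAA, a spacing of the interferon-stimulated response element, TGACG, which occurs in CREB-family sites, and CCAAT, the core of the NF-Y site. In a local alignment the windows shared 172 of 192 columns, or 89.6%. GGGNNTTCC stood 111 and 125 bases before the upstream and downstream H2-K1 starts, and 171 bases before the H2-D1 start. H2-D1 held CCAAT at 2 places before its start, as did H2-K1 counted from the downstream start, but from the upstream start H2-K1 held it at 1. Among 21263 promoter windows of the same length, 5.41% held GGGNNTTCC and 5.91% held GAANNGAAA. GAANNGAAA was added to the search after these sequences had been seen.

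B2m held GAAANNGAA, the other spacing of the interferon-stimulated response element, 139 bases before its start, and 6.84% of all promoters held it. It also held CCAAT and TGACG. The core CCAAT was found in 6 of the 8 members with a promoter sequence, against 35.4% of all promoters, and TGACG in 5 of the 8, against 20.2%. The Psmb9 to Tap1 interval held CCAAT 8 bases from the Psmb9 start, a GC box (GGGCGG, in 42.6% of promoters) and TGACG. Psmb8 held TTCNNNGAA, a STAT site core found in 6.58% of promoters, as its only match. Tapbp, whose sequence is not shown, held CCAAT and GGGCGG, and Psmb10 held none of the 7 motifs. A match describes letters and does not show that a factor was bound. H2-K1 and H2-D1 are near copies and Tap1 and Psmb9 share 1 interval, so these counts are not over independent promoters.

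The 20 regions differed in how many libraries listed them. Of these, 4 regions were listed in all 12 libraries (20.0% of the member regions), against 23.8% of all merged regions. A further 5 were listed in 9 to 11 libraries, 0 in 5 to 8, 8 in 2 to 4, and 3 in a single library. The shares of all merged regions in these other classes are not given, so these counts are not read as particular to the members. The 4 constant regions lay at the B2m start, at the shared Tap1 and Psmb9 start, at the H2-D1 start and inside Nlrc5. By place, 11 regions reached within 1 kb of a member's start, and 2 covered an end of a gene whose strand is not given. A further 3 overlapped gene bodies and 4 lay in the flanks. Of the 3, region 10 overlapped only the end of Tapbp, and its summits lay beyond that end.

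**Figure D1:**
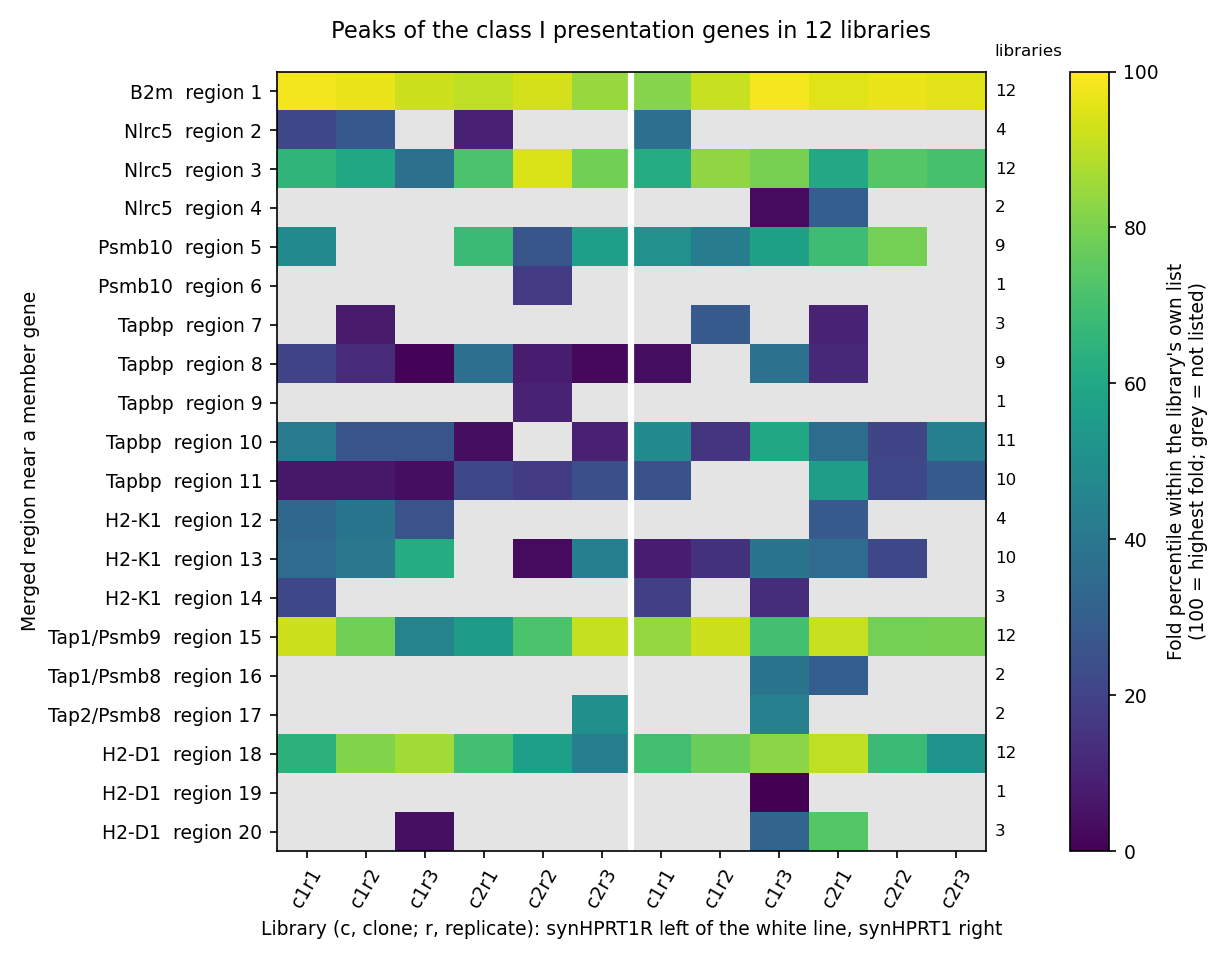
Fold percentile of the strongest peak of each of the 20 merged regions (rows) in each library (columns), synHPRT1R left of the white line and synHPRT1 right; grey cells were not listed, and the number at the right counts libraries. Regions 1, 3, 15 and 18 have a value in every column, and regions 6, 9 and 19 in a single one.

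At the level of genes, 4 of the 10 members (B2m, H2-D1, Tap1 and Psmb9) had a peak within 1 kb of the start in all 12 libraries, against 49.9% of protein-coding genes. A peak in at least 10 libraries was found for 5 of the 10, which adds H2-K1, against 56.6% of protein-coding genes. No member lacked a start peak in every library, against 31.5% of protein-coding genes with 0 libraries. The first 2 of these shares were near those of all genes and say nothing particular about the members. The third hangs on weak peaks and is not read as a trait of the members either. Tap2 and Psmb8 were listed in 2 libraries each. Psmb8 had 0 when every list was cut to the same number of peaks. Nlrc5 had 0 when peaks below a −log10 q-value of 5 were left out. For Tap2 and Nlrc5 the annotation used gives no strand, and a peak within 1 kb of either gene end was counted, which can also pick up the 3′ end.

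Strength is given as the fold percentile, the percent of peaks in the same library's list with a lower fold, where the fold is the authors' value of the summit over the local background. It ranks a peak within its own list and is not compared between lists as a change. Where a gene had no peak, the site was not detected at that depth and may still be open. The least summit that entered a list over the genome-wide background was 8 to 11 reads.

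The heavy-chain genes differed from each other. The H2-D1 start region (region 18, chr17:35262542-35263605) was listed in 12 of 12 libraries. Its percentile was 42.9 at the lowest, 67.2 at the median and 86.1 at the highest in synHPRT1R, and 51.5, 73.5 and 90.4 in synHPRT1. The groups overlapped over most of their ranges. The summit lay within 50 bp of its median position in 11 libraries, and that position was 92 bp before the annotated start, inside the printed promoter.

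The H2-K1 start region (region 13, chr17:33999639-34000825) was listed in 5 synHPRT1R and 5 synHPRT1 libraries. Where listed, its percentile was 2.78, 40.0 and 62.0 (lowest, median, highest) in synHPRT1R and 7.82, 21.8 and 38.5 in synHPRT1. It was missing from synHPRT1R clone 2 replicate 1 and from synHPRT1 clone 2 replicate 3, whose list was the shortest with 38403 peaks. Summits were spread over 674 bp, through synHPRT1 clone 1 replicate 1 with its summit at 33999930. In the other libraries listing the region they lay between 34000344 and 34000604. At H2-D1 the summits spanned 156 bp. The peak was weak enough that only 4 libraries kept it when every list was cut to its 38403 peaks with the highest −log10 p-value. Region 12, inside the gene, was listed in 3 synHPRT1R libraries and 1 synHPRT1 library, and region 14, upstream, in 1 and 2.

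H2-K1 and H2-D1 are close paralogs in a locus that differs between mouse strains, and the treatment of reads that map to both is not stated in the sources used here. A read from either gene, or from the CAST copy, may therefore have been placed at the other or lost, and the values of both genes are uncertain to that extent. The remaining H2-D1 regions were rare. Region 19 was listed in synHPRT1 clone 1 replicate 3 alone, and region 20, downstream of the gene, in 1 synHPRT1R and 2 synHPRT1 libraries.

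B2m, the light chain shared by all class I molecules, had the highest median percentile among the members' starts, and ranked above every other member's start in 9 of 12 libraries. In the other 3 the Tap1 and Psmb9 peak ranked higher, at 91.0 against 84.7 in synHPRT1R clone 2 replicate 3, 84.3 against 81.7 in synHPRT1 clone 1 replicate 1 and 92.3 against 91.7 in synHPRT1 clone 1 replicate 2. Region 1 (chr2:122147244-122148629) was the only region in the B2m window and was listed in 12 of 12 libraries. Its percentile was 84.7, 92.9 and 98.1 (lowest, median, highest) in synHPRT1R and 81.7, 95.3 and 98.7 in synHPRT1. The groups overlapped, and no library placed it below 81.7. The fold was 7.60 at the lowest, 9.60 at the median and 11.9 at the highest, and the summit held 22 to 61 reads. The median summit lay 40 bp after the annotated start. Of 10860 protein-coding genes with a start peak in all 12 libraries, 86.2% had a lower median percentile than B2m, 49.2% a lower one than Tap1 and Psmb9, and 32.2% a lower one than H2-D1. The outermost span of the neighbouring gene Patl2 also covers region 1, so the region is not assigned to B2m alone by position.

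Tap1 and Psmb9 start 226 bp apart on opposite strands, and 1 region covered both. Tap1 encodes a subunit of the peptide transporter and Psmb9 an inducible catalytic proteasome subunit. Region 15 (chr17:34187082-34188187) was listed in 12 of 12 libraries, and the same peak therefore stands for both genes. Its percentile was 44.9, 75.3 and 92.5 (lowest, median, highest) in synHPRT1R and 70.0, 81.9 and 92.3 in synHPRT1. The synHPRT1 range lay inside the synHPRT1R range. The median summit was 118 bp before the Tap1 start and 108 bp before the Psmb9 start, near the middle of the printed interval, and in 8 libraries the summit was within 50 bp of it.

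The neighbouring genes in the same cluster were seldom listed. Psmb8, which encodes another inducible catalytic subunit, starts 970 bp after the end of Tap1. A peak within 1 kb of its start (region 16, chr17:34197392-34198085) was listed in 0 synHPRT1R and 2 synHPRT1 libraries, at percentiles of 38.5 in clone 1 replicate 3 and 29.7 in clone 2 replicate 1. Those were the longest lists, with 63563 and 63704 peaks, and no library kept the peak in lists of equal length. Tap2, the other transporter subunit, had a peak at 1 gene end (region 17, chr17:34204416-34204709) in synHPRT1R clone 2 replicate 3 at percentile 50.3 and in synHPRT1 clone 1 replicate 3 at percentile 43.7. From Psmb9 to Tap2, the cluster spans 34292 bp.

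**Figure D2:**
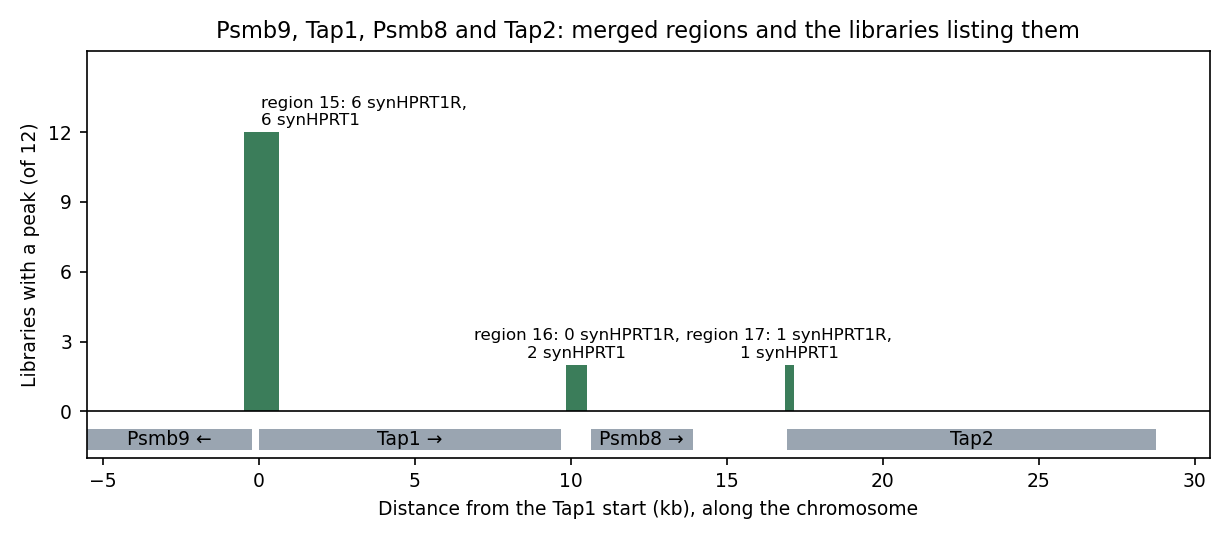
Number of libraries listing each merged region (green bars, height on the vertical axis, width to scale) against the distance from the Tap1 start in kb; grey boxes are the gene spans, with arrows for strand where known. The region between Psmb9 and Tap1 is listed in 12 libraries, and those at Psmb8 and Tap2 in 2 each.

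Tapbp encodes tapasin, the bridge between the transporter and class I molecules. It had 5 regions, the most of any member, none of them in all 12 libraries. Region 7, at the start itself, was listed in 1 synHPRT1R and 2 synHPRT1 libraries, and region 8, with its median summit 1091 bp into the gene, in 6 and 3. Counting peaks within 1 kb of the start, 3 synHPRT1R and 4 synHPRT1 libraries had one, with percentiles of 11.99 to 36.6 and 3.53 to 37.6. Regions 10 and 11, listed in 11 and 10 libraries, lay within 1 kb of the start of Rgl2, the gene that begins just beyond the end of Tapbp. The most often listed regions in the Tapbp window are therefore not at the Tapbp start.

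Psmb10, the third inducible catalytic subunit, had a region inside the gene. Region 5 (chr8:105936635-105937687) was listed in 4 synHPRT1R and 5 synHPRT1 libraries, at percentiles of 26.8 to 68.0 and 42.5 to 79.3. Its median summit lay 1341 bp into the gene from the annotated start. Whether region 5 is at a further promoter or elsewhere in the gene was not determined, since no transcript models were used. Its edge came within 705 bp of the start in the merged region, but only 1 synHPRT1R and 2 synHPRT1 libraries had a peak of their own within 1 kb. Region 6, close to the start, was listed in synHPRT1R clone 2 replicate 2 alone, at percentile 17.4. The start percentile of that library, 26.8, is that of its region 5 peak. The Psmb10 promoter also stood apart in its bases, with a ratio of observed to expected CpG of 0.22, against 0.42 to 0.64 in the 7 other members with a promoter sequence and a median of 0.53 over 17492 genes with a promoter window.

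That ratio went with how often a start was listed across the genome, as a description. Of genes with a ratio under 0.25, 6.01% had a start peak in all 12 libraries. The share was 38.1% from 0.25 to 0.5, 72.8% from 0.5 to 0.75, 83.6% from 0.75 to 1.0 and 84.8% above. Among the members above 0.5, H2-D1 (0.608), Tap1 (0.573) and Psmb9 (0.554) were listed in 12 libraries, Tapbp (0.639) in 7 and Psmb8 (0.578) in 2. Below 0.5, B2m (0.496) was listed in 12, H2-K1 (0.424 and 0.428 for its starts) in 10 and Psmb10 (0.22) in 3. The part of this ratio in the members' listing was not tested.

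Nlrc5, the class I transactivator, had its constant peak far from both ends of its 92938 bp span. Region 3 (chr8:94492076-94492813) was listed in 12 of 12 libraries, 57741 bp after the lower end of the span and 34459 bp before the upper end. Its percentile was 36.8, 68.6 and 94.2 (lowest, median, highest) in synHPRT1R and 60.4, 72.3 and 83.5 in synHPRT1, so the groups overlapped. Region 2, at the lower end, was listed in 3 synHPRT1R libraries and 1 synHPRT1 library, and region 4, beyond the upper end, in 0 and 2. Whether region 3 is at a promoter or within an intron was not determined, since no transcript models were used.

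**Figure D3:**
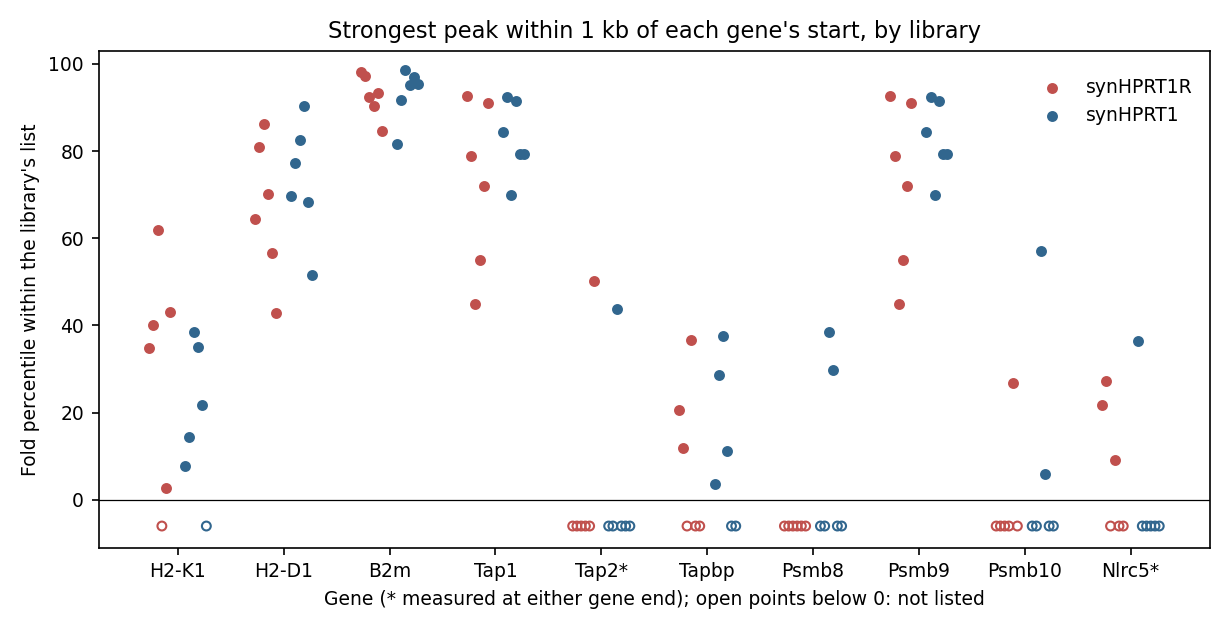
Fold percentile (vertical axis, percent of the library's own peaks with a lower fold) of the strongest peak within 1 kb of each member's start, 1 point per library, synHPRT1R in red left of synHPRT1 in blue; open points below 0 had no such peak. B2m points lie between 81.7 and 98.7, and Psmb8 has filled points in 2 synHPRT1 libraries.

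No member separated synHPRT1R from synHPRT1. Presence was compared by Fisher's exact test, adjusted by Benjamini-Hochberg over the 74604 regions listed in 1 to 11 libraries. Of these, 0 regions (0.0%) were called and 164 had an unadjusted p under 0.05. None of the 16 variable member regions was among the 164, and their lowest p was 0.182, for region 8 at Tapbp. Over 4051 gene starts listed in 1 to 11 libraries, 0 (0.0%) were called, 11 had an unadjusted p under 0.05, and 0 of the 6 variable members were among these. With 6 libraries against 6 the smallest p is 0.00216, which adjustment over so many regions cannot bring under 0.05 unless many regions separate fully, so a difference at a single region was hardly detectable by this test.

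The number of member regions listed varied with the list. The synHPRT1R libraries listed 12, 11 and 10 of the 20 in clone 1, and 9, 10 and 10 in clone 2. The synHPRT1 libraries listed 11, 8 and 14 in clone 1, and 14, 8 and 6 in clone 2. On average a library listed 10.3 ± 1.03 in synHPRT1R and 10.2 ± 3.37 in synHPRT1 (SD, n = 6 each), and the difference between them was far below either SD. The 2 libraries with 14 regions were the longest lists, and the library with 6 was the shortest. Of all regions listed in 1 to 11 libraries, the 2 longest lists held 51.8% and 52.0%, the shortest 18.3% and the others 22.8% to 44.4%. The spread in member regions is therefore not read as particular to the members. Background pileup, a measure of depth, was 3.16 and 3.72 reads in the 2 longest lists and 1.74 reads in the shortest. Between these extremes, libraries at 2.68 and 2.88 reads listed 12 and 11 regions, and those at 2.79, 2.69 and 2.70 reads listed 9, 8 and 8. Libraries at 1.98, 2.02, 2.03 and 2.01 reads listed 10, 11, 10 and 10. The part of depth in these counts was not tested. Across all libraries the lists held 41737 to 58099 peaks in synHPRT1R and 38403 to 63704 in synHPRT1.

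The inducible proteasome subunits were set against the constitutive subunits they replace, within each list. A start with no peak counted as percentile 0. Psmb8 averaged 5.68 ± 13.4 and Psmb5 38.0 ± 24.3 (SD, n = 12 libraries), a difference of -32.3 percentile points, with Psmb8 lower in 10 of 12 libraries and equal at 0 in the others (exact paired permutation test, p = 0.0039 adjusted over 4 comparisons). Psmb10 averaged 7.50 ± 17.4 and Psmb7 66.3 ± 12.4, a difference of -58.8 points, lower in 12 of 12 (adjusted exact p = 0.00195). Psmb8 was listed in only 2 libraries and Psmb10 in 3. Elsewhere they counted as 0, and a difference there could not be positive. Both p-values therefore rest largely on how seldom these starts were listed and not on the strength of their peaks. Psmb9 went the other way, at 77.6 ± 15.2 against 54.7 ± 26.5 for Psmb6. The difference was 22.9 points, higher in 9 of 12 (adjusted exact p = 0.0195). Its peak is the one shared with Tap1, so the value cannot be assigned to Psmb9 alone. Psmb6 counted as 0 in synHPRT1R clone 2 replicate 1, where it was not listed.

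The libraries come from 4 clones, and with clone means each of the 3 differences reached the smallest p that 4 clones allow, which does not pass 0.05 (adjusted exact p = 0.167). The Psmb10 value depends on the distance, because the region inside the gene enters at 2 kb, where the difference was -24.8 points (adjusted exact p = 0.0176). Psmb7 was measured at either gene end, which can only raise its value. None of the 3 differences separated the genotypes (exact permutation, adjusted p = 0.776 for each). Psmb8 minus Psmb5 was -40.0 in synHPRT1R and -24.6 in synHPRT1, Psmb10 minus Psmb7 -62.7 and -54.9, and Psmb9 minus Psmb6 18.5 and 27.4.

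**Figure D4:**
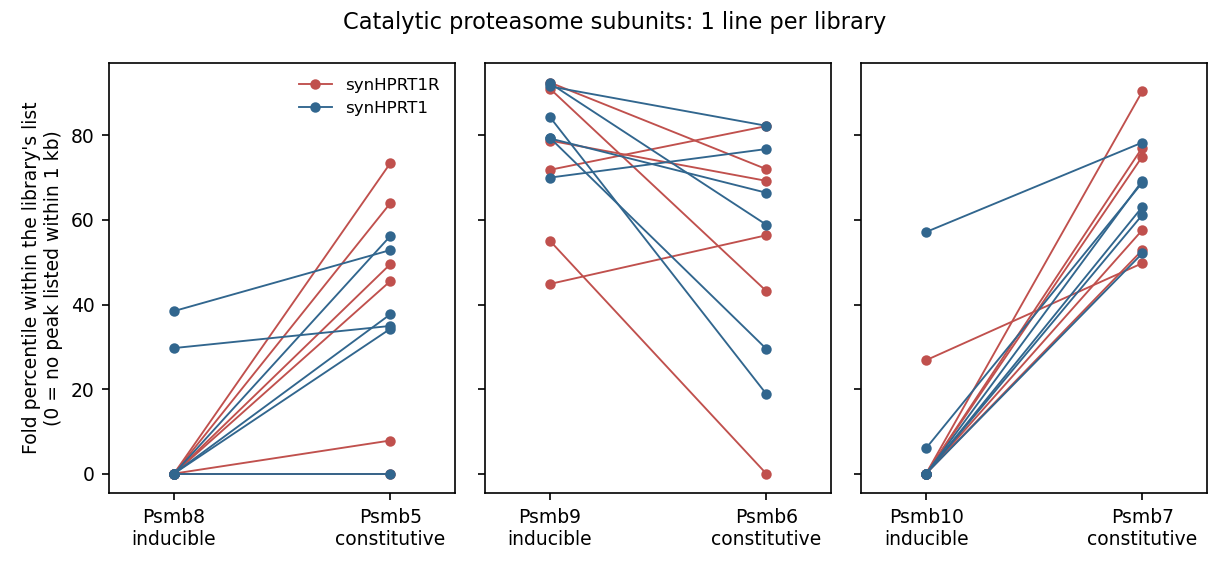
Fold percentile of the strongest peak within 1 kb of the start (vertical axis; 0 where none was listed) of each inducible subunit and the constitutive subunit it replaces, 1 line per library, synHPRT1R in red and synHPRT1 in blue. The line rises toward Psmb7 in 12 of 12 libraries and falls toward Psmb6 in 9 of 12. The Psmb9 peak is shared with Tap1.

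Nlrc5 was likewise set against Ciita, the class II transactivator. Ciita had no peak at either gene end, or in its span with 3 kb on either side, in any of the 12 libraries. Nlrc5 averaged a percentile of 7.88 ± 13.1 at its ends and Ciita 0, with Nlrc5 higher in 4 of 12 libraries. With Ciita at 0 throughout, no difference could be negative and a paired test would only count the libraries listing an Nlrc5 end, so no p is given. The difference was 10.6 points within 2 kb of the ends, through 6 libraries, and 1.65 points in lists of equal length, through 1. By the whole window Nlrc5 was listed in 12 libraries through region 3.

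Genes that work with the members mostly had a listed start. Of 3 constitutive catalytic subunits, 3 had a start peak in at least 10 libraries, Psmb7 in 12, Psmb6 in 11 and Psmb5 in 10, but only 1 of the 3 did so when peaks below a −log10 q-value of 5 were left out. Of the proteasome activator genes it was 2 of 3, with Psme2 in 12, Psme3 in 11 and Psme1 in 9, and 1 of 3 under the stricter q-value and in lists of equal length. Of 5 chaperone and trimming genes it was 4, among them Calr, Canx and Pdia3 in 12 libraries each at median percentiles of 90.8, 93.3 and 92.3, while Tapbpl, a tapasin relative, was listed in 5.

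Of 13 interferon signalling genes, 11 had a start peak in at least 10 libraries. The receptor chains Ifngr1 and Ifnar1 and the kinase Jak1 were listed in 12, at median percentiles of 95.0, 85.3 and 96.9. Ifnar2 and Irf2 were listed in 11, and Ifngr2, the partner chain of Ifngr1, in 4 within 1 kb of its start but in 12 within its wider window. Of 10 genes for factors that bind class I promoters, 9 reached at least 10 libraries, including the RFX subunits Rfx5, Rfxap and Rfxank in 12 each, and Atf1 was listed in 9. These shares compare with 56.6% of all protein-coding genes, and no test was made of a list.

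The remaining class I genes were mixed. H2-M3, a nonclassical heavy chain that presents formylated peptides, was listed in 12 libraries at a median percentile of 96.1, above every classical heavy chain here. H2-Q4 and H2-Q7 were listed in 11 and H2-T23 in 8, while H2-T24, Cd1d1 and Mr1 had no start peak in any library. In the wider window Cd1d1 was listed in 12 libraries, and H2-T24 and Mr1 in 0. H2-Q4 and H2-Q7 belong to a family of similar copies, with the same limit on mapping as H2-K1. Of the 8 genes in the list of class II genes and Ciita, 0 reached at least 10 libraries and 4 had none (H2-Aa, H2-DMb1, H2-Oa and Ciita). By the wider window H2-Oa was listed in 6 libraries, and H2-Aa, H2-DMb1 and Ciita in 0. Within 1 kb H2-Ab1 was listed in 7, Cd74 in 6, H2-DMa in 5 and H2-Eb1 in 1. In the wider window these 4 were listed in 7, 9, 12 and 5.

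**Figure D5:**
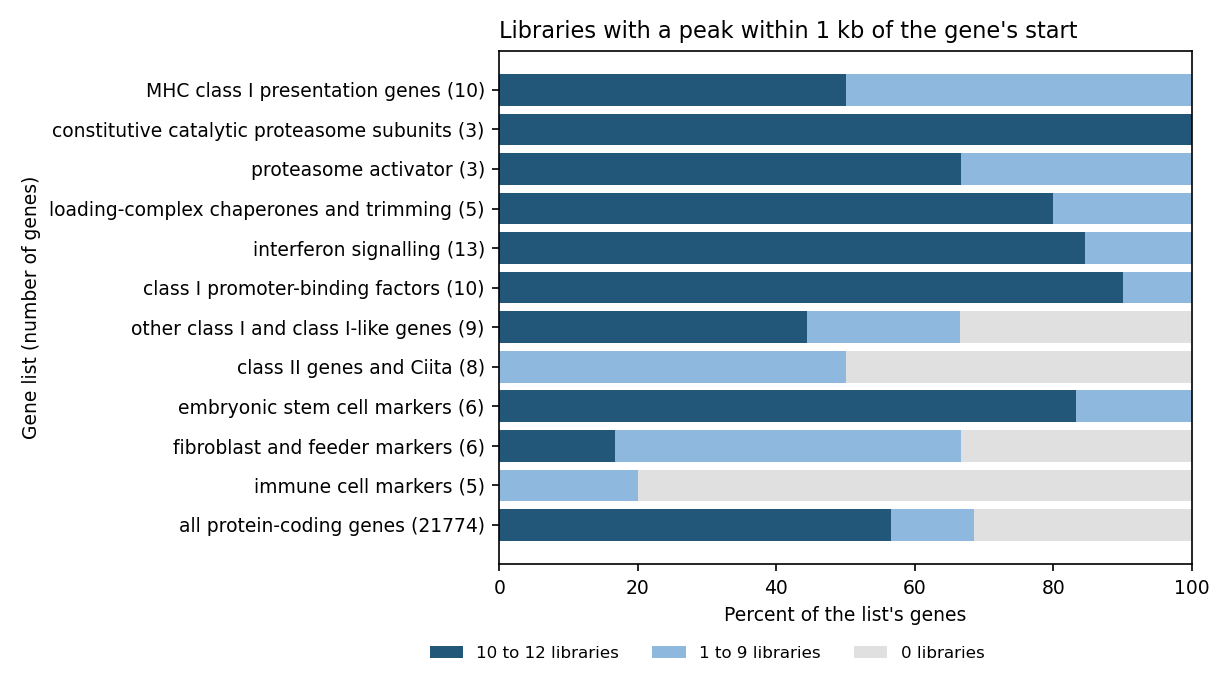
Percent of the genes of each list (horizontal axis) with a peak within 1 kb of the start in 10 to 12 libraries (dark), 1 to 9 libraries (light) or 0 libraries (grey), with the number of genes in brackets. The dark share is 50.0% for the MHC class I presentation genes, 56.6% for all protein-coding genes and 0.0% for the class II genes and Ciita.

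The label of the cells was read against marker genes. Of 6 embryonic stem cell markers, 5 had a start peak in 12 libraries, Nanog, Sox2 and Esrrb among them, and Pou5f1 had one in 7 within 1 kb but in 12 within its wider window. Of 5 immune cell markers, Ptprc, Cd3e, Csf1r and Itgam had 0 and Cd79a had 2 within 1 kb of the start, and the libraries held 0 in synHPRT1R and 0 to 1 in synHPRT1. In the wider window Ptprc, Itgam and Cd79a were listed in 12 libraries each, and Cd3e and Csf1r in 0. Of 6 fibroblast and feeder markers, Col3a1 and Lum had 0, Thy1 1, Col1a2 8, Pdgfrb 9 and Col1a1 11 within 1 kb, and the libraries held 1 to 3 in each genotype. In the wider window Lum and Pdgfrb were listed in 12, Col1a1 in 11, Col3a1 and Col1a2 in 8 and Thy1 in 1. By that window 2 of the 6 fibroblast markers and 3 of the 5 immune markers were listed in all 12 libraries, against 61.3% of protein-coding genes. The part of other cells in the members' peaks was not tested.

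For the members listed in 3 to 9 libraries, the protein-coding genes whose start was listed in the same libraries were looked up. Tapbp was matched in all 12 libraries by 2 genes, Bhlhe23 and Dok4. Psmb10 was matched in all 12 by 5 genes, of which Armcx3, Hapln3 and Icos come first by name. Nlrc5 was matched in at most 11, by 3 genes, Arhgef39, Foxr1 and Lkaaear1. With presence or absence over 12 libraries of unequal depth, such matches describe the lists.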

How the data were processed

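The data were 12 ATAC-seq peak lists, 1 per library, 6 synHPRT1R and 6 synHPRT1, grouped by their source names and titles. Per the submitters' processing notes, MACS2 2.1.0, Bowtie2 2.2.9, SAMtools 1.9, bcl2fastq 2.20 and deepTools 3.5.0 were used with GRCm38 (mm10). The sources used here do not state the options, a shift of reads for Tn5, or the treatment of duplicates, multi-mapping reads and blacklisted regions. The authors' deposited lists follow the narrowPeak layout, with a score equal to 10 times the −log10 q-value, a fold (the ratio of summit to local background), a −log10 p-value and −log10 q-value of the summit, and the summit offset. All listed peaks had a −log10 q-value of at least 1.30. Peaks were called per library, and read counts were not used.

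Peaks were merged over the 12 libraries (Python 3.11.15, pandas 2.3.3, scipy 1.17.1). Gene spans came from RefSeq (GRCm38.p6). Starts and promoter sequences were given for 17492 of 21774 protein-coding genes, and for the rest, 19.7%, either gene end within 1 kb was used. Promoters were aligned with Biopython 1.88. Background pileup, a measure of depth, and summit reads were recovered from the fold and p-value, which were solved for at least 99.8% of sampled peaks. Presence was compared with Fisher's exact test and Benjamini-Hochberg adjustment over all regions or genes at 0.05, and percentiles within a list with exact paired permutation over 12 libraries. The tests were tried on simulated data. Members and lists were chosen with earlier results of these data known. All members are named. In each companion list so are the first 3 of genes listed in 12, in 1 to 11 and in 0 libraries, by list order. Named besides these are the genes of the paired comparisons, H2-DMa, the fibroblast markers and the immune markers at 0. A gene of the marker lists is not reported here.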

Additional observations from a re-analysis of the deposited data

How the results depend on the processing

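No region and no gene start was called between genotypes under any alternative run, which were a −log10 q-value of at least 5, lists of equal length, 50% coverage of the region (regions), other distances (gene starts) and leaving out each library in turn. With 6 libraries against 6 the smallest p is 0.00216, so a call was hardly possible in any of them. These counts of 0 are therefore not read as stability. The difference in member regions per library, 0.167 (synHPRT1R minus synHPRT1), was smaller than the spread, and its sign turned. It was -1.17 at the stricter q-value and at 50% coverage, -0.167 in lists of equal length, -1.67 with 10 kb on either side, and -0.667 to 0.933 with 1 library left out, below 0 without synHPRT1 clone 1 replicate 2, clone 2 replicate 2 or clone 2 replicate 3. The variable member regions gave the same differences by construction, because the regions listed in every library add a constant. Same-numbered libraries of the 2 genotypes did not deviate together (correlations of -0.00725 to 0.00739, 1 of 12 libraries closest to its own number). Pairing them as replicate blocks cannot change the mean difference of 0.167.

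The 3 proteasome comparisons kept their direction under every alternative, and with 1 library left out ranged from -35.3 to -28.6 (Psmb8), 19.1 to 26.1 (Psmb9) and -62.2 to -55.9 (Psmb10). Psmb10 minus Psmb7 was -24.8 at 2 kb. With clone means they were -32.3, 22.9 and -58.8 with an adjusted exact p of 0.167. Nlrc5 minus Ciita was 5.28 to 8.59 with 1 library left out and 10.6 at 2 kb, through 6 libraries in place of 4. With Ciita at 0 in every library its test only counts the libraries listing Nlrc5. Start peaks in lists of equal length were kept in 12 libraries by H2-D1, B2m, Tap1 and Psmb9, and in 4 for H2-K1, 3 for Tapbp, 2 for Psmb10 and Tap2, 1 for Nlrc5 and 0 for Psmb8. Of 60 recounts of genes with a start peak (members, companion lists and all genes), 13 moved by over 1.5 times. At the stricter q-value the constitutive subunits fell to 1 of 3, the activator to 1 of 3, other class I genes to 1 of 9, stem cell markers to 3 of 6 and fibroblast markers to 0, and in equal lengths the activator, other class I and fibroblast lists gave the same counts. Fibroblast markers were 0 at 500 bp and 3 in the gene window, immune markers 3 in that window, and class II genes 1 in it and at 2 kb. An unlisted site may be open, and the part of depth in the missing weak sites was not tested.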
